A study of Mus musculus with 4 samples.

Results

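Ion channels and neurotransmitter receptors are the membrane proteins that set the excitability of a cell and let it sense transmitter, and glia carry them as well as neurons. The genes described here are those in the site tables whose names begin as potassium (Kcn), sodium (Scn), calcium (Cacn) and chloride (Clcn) channel genes, as TRP channel genes (Trpc, Trpm, Trpv), or as glutamate (Gria, Grik, Grin1 to Grin3, Grm) and GABA (Gabr, Gabbr) receptor genes, with Kcnj10 left out. They number 57 of 5526 named genes and hold 123 of the 10598 positions listed in named genes, in 140 listings over the 4 libraries. Of the 57 names, 55 are protein coding in RefSeq, and Kcnq1ot1 and Kcnmb4os1 are long non-coding RNAs. Trpc4ap fits the naming rule but encodes a protein that binds a TRP channel and is not itself a channel.

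The 4 libraries came from cells sorted out of mouse cortex: 2 of astrocytes, sorted with an antibody against ACSA2, and 2 of microglia, sorted with one against CD11b. All mice had the genotype APOBEC1-YTH, which denotes a cytidine deaminase joined to a domain that binds N6-methyladenosine (m6A), and all were given tamoxifen, so no library comes from an untreated or unmodified animal. Dosing was 20 mg/kg at intervals of 24 hours over 5 days from an age of 10 weeks, and tissue was taken 7 days after the last dose. The promoter that drives the fusion and the number of animals behind a library are not stated in the labels, so any p-value measures only the spread between these libraries. GLORI converts adenosine without the methyl group so that it is read as G, and the level of a site is the share of reads that still show A. The libraries are called Astro1 and Astro2 (labelled astrocytes, replicates 1 and 2) and Micro1 and Micro2 (labelled microglia, replicates 1 and 2).

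m6A is placed mainly on messenger RNA, in short motifs around an AC pair, often near the stop codon and in the 3′ untranslated region, and proteins that bind it affect splicing, translation and decay. In brain, transcripts of channels and synaptic receptors are among those known to carry it. Astrocytes buffer potassium through inward rectifier and tandem pore channels and sense glutamate and GABA through metabotropic and ionotropic receptors, while the potassium channels described in microglia include THIK-1, made from Kcnk13.

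The replicate 2 libraries ran against their labels in the marker genes. Of 15 astrocyte markers, 13 had a site in Astro1, 1 in Astro2, 0 in Micro1 and 12 in Micro2. Of 15 microglia markers, 2 had a site in Astro1, 13 in Astro2, 11 in Micro1 and 0 in Micro2. Of 15 oligodendrocyte markers, 12 had a site in Astro1, 0 in Astro2 and Micro1, and 11 in Micro2. For endothelial and mural cells, 3 of 14 marker genes were listed in Astro1, 0 in Astro2 and Micro1, and 4 in Micro2. For oligodendrocyte precursors, 4 of 8 marker genes were listed in Astro1, 0 in Astro2, 1 in Micro1 and 2 in Micro2. For neurons, 4 of 20 were listed in Astro1 (Map2, Slc17a7, Eno2 and Celf4, with 1 site each), 1 in Micro1 (Map2) and 0 in the other libraries. Snap25, Syt1, Rbfox3, Gad1 and Gad2, which mark neurons, had no site in any library. Every comparison by label below carries this limit, and the part these cells play in the channel sites was not tested.

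Channel and receptor sites were most numerous in Astro1 and, next, in Micro2. Astro1 listed 75 such sites in 42 genes, Astro2 listed 11 in 10 genes, Micro1 listed 14 in 13 genes and Micro2 listed 40 in 28 genes. As a share of all sites in named genes, these were 1.57% in Astro1 (exact 95% binomial interval 1.23 to 1.96%, of 4790 sites) and 0.468% in Astro2 (0.234 to 0.837%, of 2348). The shares were 1.31% in Micro1 (0.72 to 2.19%, of 1066) and 1.06% in Micro2 (0.757 to 1.44%, of 3782). The intervals cover the counting of sites only, and the read depth is unknown. In such sorted pools, fewer cells of a type and less RNA per cell cannot be told apart. Astro2 had the lowest share; its interval overlaps those of Micro1 and Micro2 and not that of Astro1. Compared with solute carrier genes, another large family of membrane proteins, the order was not the same: those made up 3.07% of named-gene sites in Astro1, 1.92% in Astro2, 1.88% in Micro1 and 3.68% in Micro2.

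**Figure D1:**
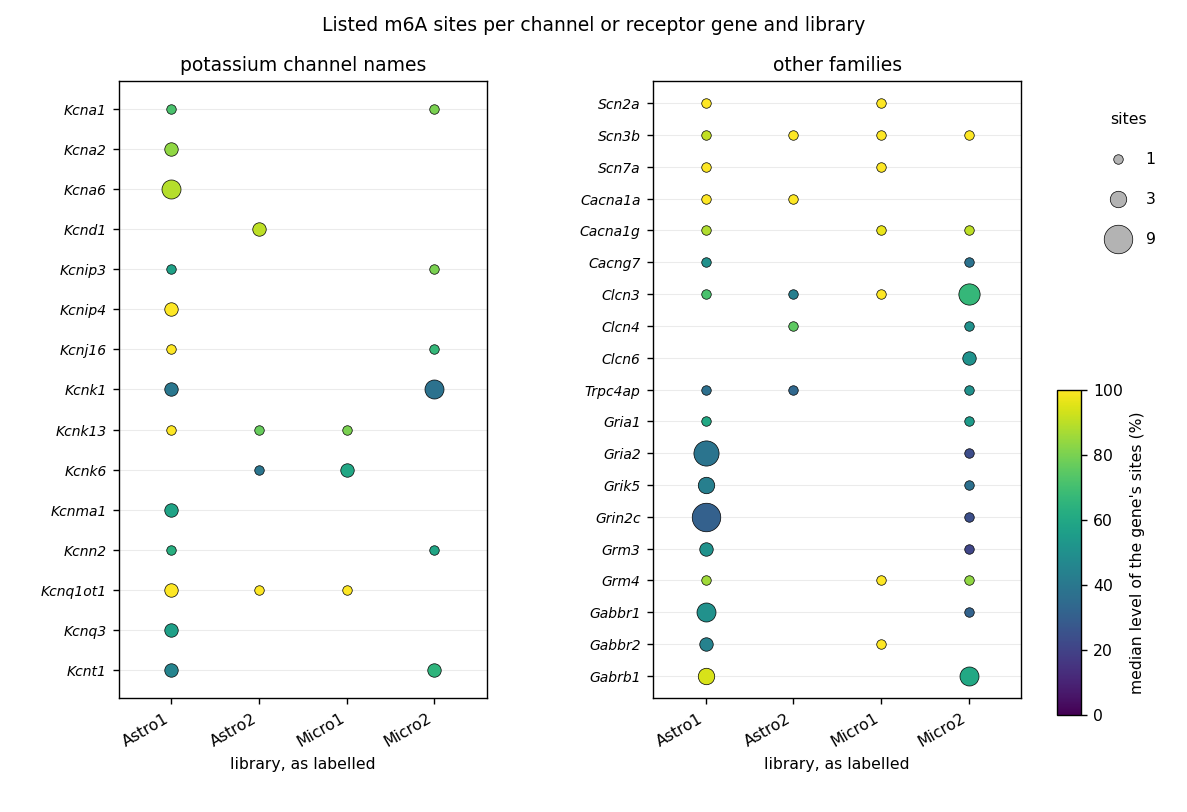
Number of listed sites for the 34 genes with 2 or more listings (rows, with potassium channel names in the left panel) in each library (columns); the area of a point gives the number of sites and its colour the median level in percent. The points are densest in the columns of Astro1 and Micro2, and only Clcn3 and Scn3b have a point in all 4 columns.

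Of 210 coding genes in RefSeq with such names, 55 had a site in at least 1 library, 26.2%, against 22% of all 21900 coding genes. By library, 41 of the 210 (19.5%) had a site in Astro1, against 12.8% of all coding genes, and 9 (4.29%) in Astro2, against 6.87%. In Micro1 the count was 11 (5.24%), against 3.07%, and in Micro2 it was 28 (13.3%), against 10.8%. No family had more than 50% of its coding genes listed in a library, a share reached by the AMPA receptor genes, with 2 of 4, in Astro1 and in Micro2.

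Potassium channel names made up 27 of the 57 genes, with 51 positions. They had 28 sites in Astro1, 5 in Astro2, 6 in Micro1 and 15 in Micro2. Among tandem pore channels, which carry background potassium current, Kcnk1 had 2 sites in Astro1, at 37.5% and 41.7%, and 4 in Micro2, at 21.4%, 29.6%, 45.5% and 62.5%, with none in Astro2 or Micro1. Other tandem pore channel genes were listed in other sets of libraries. Kcnk13 had 1 site each in Astro1 (100%), Astro2 (76.9%) and Micro1 (80%), at 3 different bases within 770 bases of each other, and none in Micro2. Kcnk6, which encodes TWIK-2, had 1 site in Astro2 at 38.9% and 2 in Micro1 at 57.1% and 61.9%, and none in Astro1 or Micro2. Kcnk6 was the only one of the 57 genes listed in Astro2 and Micro1 alone, a share of 1.75% against 1.88% of all named genes. Kcnk2, a channel opened by stretch and lipids, had 1 site in Micro2 at 85.7%, and Kcnk12 had 1 in Micro1 at 40%.

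Voltage gated potassium channel genes were listed mostly in Astro1. Kcna6 had 4 sites there, at 42.9%, 77.8%, 100% and 100%, and none elsewhere. Kcna2 had 2 in Astro1, at 66.7% and 100%. Kcna1, mutated in episodic ataxia in humans, had 1 in Astro1 at 71.4% and 1 at another base in Micro2 at 80%. Kcnd1, which carries a fast inactivating current, was the exception, with 2 sites in Astro2, at 80% and 100%, and none in the other 3 libraries. Single sites in Astro1 were listed for Kcnh7 (40%), Kcnc4 (100%) and Kcnd3 (100%), and a single site in Micro2 for Kcnc2 (100%). Kcnq3, a subunit of the M current channel, had sites in Astro1 at 50% and 62.5%.

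Other potassium channel genes had few sites each. Kcnj16, which forms channels with the product of Kcnj10 in astrocytes, had 1 site in Astro1 at 100% and 1 in Micro2 at 66.7%, 227 bases apart. Kcnj10 itself, outside the rule, had 7 sites in Astro1 and 4 in Micro2, and none in the other libraries. Kcnt1, a sodium activated channel, had 2 sites in Astro1 (30% and 60%) and 2 at other bases in Micro2 (50% and 80%). Among calcium activated channels, Kcnn2 had 1 site in Astro1 at 62.5% and 1 at another base in Micro2 at 58.6%, Kcnn3 had 1 in Micro2 at 60%, and Kcnma1 had 2 in Astro1 at 35.7% and 80%. Kcnmb1, a regulatory subunit of the Kcnma1 channel, and Kcnj3, an inward rectifier opened by G proteins, had 1 site each, at 100% in Astro1 and at 66.7% in Micro2. Of the cytosolic calcium sensors that bind voltage gated channels, Kcnip4 had 2 sites in Astro1 at 100% each, and Kcnip3 had 1 in Astro1 at 57.1% and 1 in Micro2 at 80%.

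The non-coding names were listed only at 100%, a level shared by 35 of the 140 listings, in 25 of the 57 genes. Kcnq1ot1, an imprinted antisense RNA that silences genes around Kcnq1, had 2 sites in Astro1, 1 in Astro2 and 1 in Micro1, and each of these 4 listings was at 100%. Kcnmb4os1 had 1 site, in Micro1, at 100%. Of other named-gene sites, 27.4% were at 100% in Astro1, 37.8% in Astro2 and 60.3% in Micro1.

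Sodium channel genes had 7 positions, with 4 sites in Astro1, 1 in Astro2, 4 in Micro1 and 1 in Micro2. The base at position 40200642 of chromosome 9 (plus strand, mm39) in Scn3b, an auxiliary subunit, was listed at 100% in Astro2, Micro1 and Micro2, and not in Astro1, which listed another base, 610 away, at 90.9%. Scn2a, a main sodium channel of neurons, had 1 site, at position 65595096 of chromosome 2 (plus strand), at 100% in Astro1 and in Micro1. Scn7a, a channel gated by extracellular sodium, had different bases listed at 100% in Astro1 and in Micro1. Scn10a, known from sensory neurons, had 1 site in Micro1 at 100%.

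Calcium channel genes had 6 positions, 1 in each of 6 genes. Cacna1g, a low voltage activated channel, was listed at position 94364326 of chromosome 11 (minus strand) at 88% in Astro1, 96.6% in Micro1 and 90% in Micro2. These 3 values lay within 8.62 points. Cacna1a, a channel of presynaptic terminals, was listed at position 85294270 of chromosome 8 (plus strand) at 100% in Astro1 and in Astro2, and in neither microglia library. Cacng7, Cacng5 and Cacng8 encode proteins that escort AMPA receptors: Cacng7 had 1 site at 50% in Astro1 and 37.5% in Micro2, Cacng8 had 1 at 60% in Astro1, and Cacng5 had 1 at 60% in Micro2. Cacna2d1, a subunit that binds gabapentin, had 1 site in Astro1 at 100%.

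Chloride channel genes had more sites in Micro2 than in the other libraries together, with 2 sites in Astro1, 2 in Astro2, 1 in Micro1 and 8 in Micro2. Of the 13 listings, 8 lay in Clcn3, an exchanger of endosomes, which had 1 site in Astro1 (71.4%), 1 in Astro2 (42.9%), 1 in Micro1 (100%) and 5 in Micro2 (60% to 92.3%). It is 1 of 2 member genes with a site in every library, Scn3b being the other, a share of 3.51% of the 57 genes against 2.37% of all named genes. Clcn4 was listed at position 7286039 of chromosome 7 (minus strand) at 75% in Astro2 and 50% in Micro2. Clcn6 had 2 sites in Micro2, at 44.4% and 57.1%, and Clcn7, the exchanger of lysosomes, had 1 in Astro1 at 37.5%.

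TRP names had 6 positions in 4 genes. Trpc4ap had 1 site in Astro1 at 36.4%, 1 in Astro2 at 33.3% and 1 in Micro2 at 50%, each at another base. Trpc1 and Trpm7, a channel fused to a kinase, had 1 site each in Astro1, both at 50%. Trpm2, a channel opened under oxidative stress and known from immune cells, had 1 site in Astro2 at 100%.

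Ionotropic glutamate receptor genes had sites in Astro1 and Micro2 and none in Astro2 or Micro1. Grin2b was listed in Astro1 alone, and Gria1, Gria2, Grik5 and Grin2c in Astro1 and Micro2. Of all named genes, 24.3% were listed in Astro1 alone, 17.8% in Micro2 alone and 15.7% in these libraries together and no other. Grin2c, an NMDA receptor subunit that is known from astrocytes and the cerebellum, had the most positions of the 57 genes. It had 9 sites in Astro1, at 15.2%, 25%, 26.3%, 28.6%, 30.8%, 37.5%, 38.1%, 50% and 57.9%, and 1 in Micro2, at 24.1%. The base shared by both libraries, position 115140333 of chromosome 11 (minus strand), was at 30.8% in Astro1 and 24.1% in Micro2. Gria2, the AMPA receptor subunit that makes channels impermeable to calcium, had 7 sites in Astro1, from 21.4% to 70%, and 1 at another base in Micro2, at 23.1%. Grik5, a kainate receptor subunit, had 3 in Astro1, at 42.9%, 42.9% and 50%, and 1 at another base in Micro2, at 36.4%. Gria1 had 1 in Astro1 at 60% and 1 at another base in Micro2 at 54.5%, and Grin2b had 1 in Astro1 at 44.4%. No listing in these 5 genes exceeded 70%. The genes for the obligatory NMDA subunit, Grin1, and for Gria3 and Gria4 had no site in any library. A site in any library was listed for 2 of 4 AMPA (50%), 1 of 5 kainate (20%) and 2 of 7 NMDA receptor genes (28.6%). The share of all coding genes was 22%.

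Metabotropic glutamate receptor genes had 3 sites in Astro1, 0 in Astro2, 1 in Micro1 and 3 in Micro2. Grm4, a presynaptic receptor, was listed at position 27673550 of chromosome 17 (minus strand) at 85.7% in Astro1, 100% in Micro1 and 83.3% in Micro2. Grm3, the main metabotropic glutamate receptor of adult astrocytes, had 2 sites in Astro1 at 27.3% and 75% and 1 in Micro2 at 21.1%, 41 bases from the lower of them. Grm5, which signals through calcium release, had 1 site in Micro2 at 100%.

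GABA receptor genes were represented by 3 genes with 14 positions. Gabrb1, a subunit of the GABA-gated chloride channel, had 3 sites in Astro1, at 88.2%, 93.8% and 100%, and 4 in Micro2, at 44.4%, 60%, 60% and 83.3%. No base was shared, and every site of Astro1 stood above every site of Micro2. Some other genes, such as Gabbr1 and Grik5, had the same order, and others, such as Kcna1 and Kcnip3, had the reverse. These orders compare different bases and were not tested. Gabbr1 and Gabbr2 encode the pair of subunits of the GABA B receptor. Gabbr1 had 4 sites in Astro1, from 46.2% to 60%, and 1 in Micro2 at 31.3%. Gabbr2 had 2 in Astro1, at 28.6% and 60%, and 1 in Micro1 at 100%. The base at position 46736361 of chromosome 4 (minus strand) was at 28.6% in Astro1 and 100% in Micro1, a gap of 71.4 points that was the widest of the 14 positions listed in more than 1 library. Of the 21 GABA receptor genes of RefSeq, 3 (14.3%) had a site in any library, against 22% of all coding genes. The 18 without a site include all 6 Gabra genes.

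**Figure D2:**
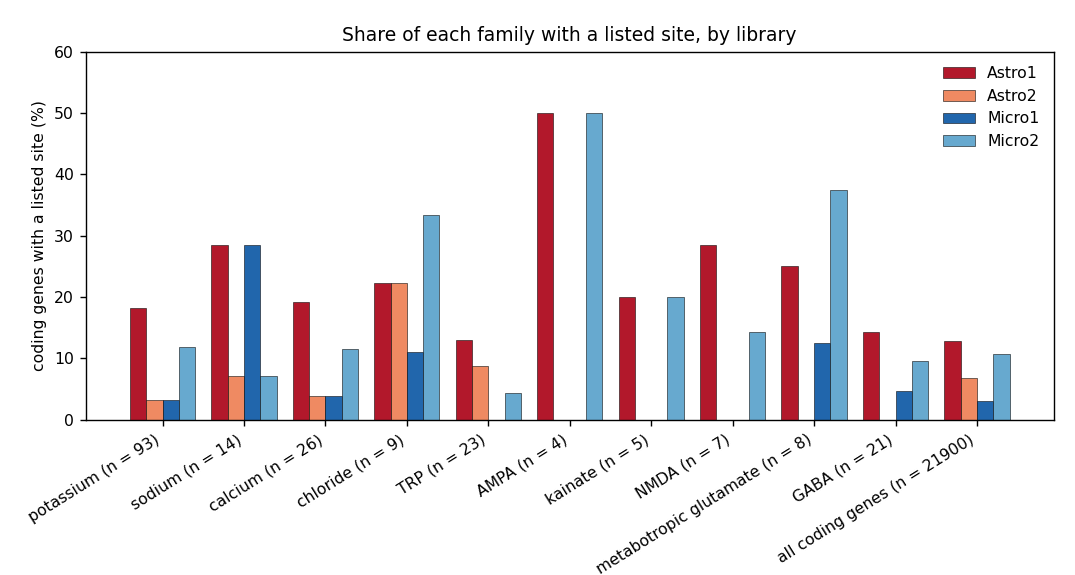
Percent of the RefSeq coding genes of each family with at least 1 listed site, by library, with all coding genes at the right; n is the number of coding genes. AMPA, kainate and NMDA receptor genes have bars only for Astro1 and Micro2.

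Within a library, the families stood at different levels. In Astro1, the median level was 74.6% over 28 potassium channel sites, 95.5% over 4 sodium channel sites, 88% over 5 calcium channel sites, 54.5% over 2 chloride channel sites and 50% over 3 TRP sites. In the same library it was 34.1% over 10 NMDA receptor sites, 45.5% over 8 AMPA receptor sites, 42.9% over 3 kainate receptor sites, 60% over 9 GABA receptor sites and 75% over 3 metabotropic glutamate receptor sites. The ionotropic glutamate receptor families had the lowest medians, and channel families lay on both sides of the GABA and metabotropic receptors. Those lowest medians rest mostly on single genes. Grin2c held 9 of the 10 NMDA sites, Gria2 7 of the 8 AMPA sites and Grik5 all 3 kainate sites. Other named genes with 3 or more sites in Astro1 also had a lower median (52.5%) than those with a single site (80%). The families were compared without a test, since sites of 1 library are not replicates.

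Over all channel and receptor sites, the median level was 60% in Astro1, 80% in Astro2, 100% in Micro1 and 60% in Micro2. The medians of all other named-gene sites were 66.7% in Astro1, 80% in Astro2, 100% in Micro1 and 58.8% in Micro2, so Micro1 was highest and Astro2 next for both kinds of sites. Sites at 100% numbered 17 of 75 in Astro1 (22.7%), 5 of 11 in Astro2 (45.5%), 9 of 14 in Micro1 (64.3%) and 4 of 40 in Micro2 (10%). The corresponding shares of other named-gene sites were 27.4%, 37.8%, 60.3% and 15.3%. At the other end, 6 listings were under 25%, in Grin2c, Gria2, Grm3 and Kcnk1. In Astro1, the 27 genes with a single site had a median of 71.4%, the 9 genes with 2 sites had 61.3%, and the 6 genes with 3 or more had 48.1%. Other named genes of that library showed the same order, with 80%, 66.7% and 52.5%. In Micro2 the order did not hold for channel and receptor genes, with 60% for 23 genes with a single site, 53.6% for 2 genes with 2 sites and 60% for 3 genes with 3 or more, against 60%, 55.6% and 47.8% in its other named genes.

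**Figure D3:**
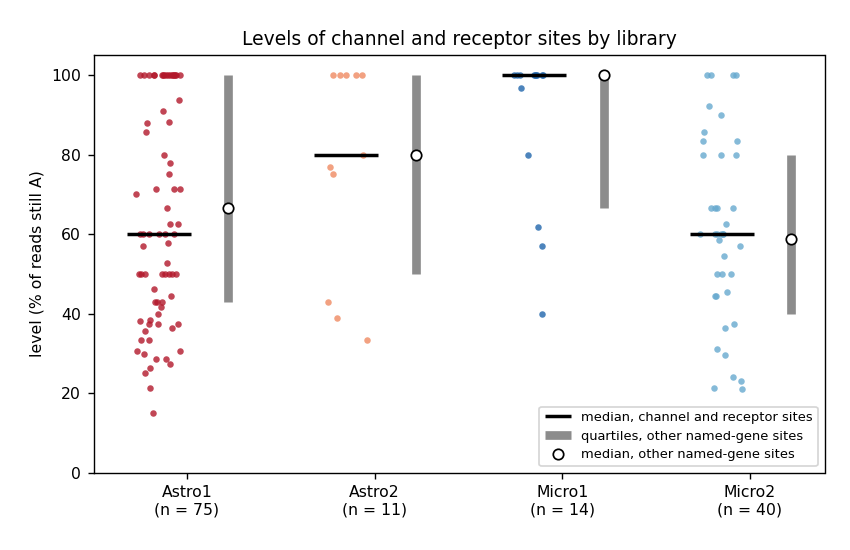
Level of each channel or receptor site in percent (points, spread sideways at random) by library, with their median (black line) beside the quartiles (grey bar) and median (white point) of the other named-gene sites. The medians are 60%, 80%, 100% and 60% from left to right.

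Most of these positions were seen once. Of the 123 positions, 109 (88.6%) were listed in 1 library, 11 in 2, 3 in 3 and 0 in all 4, and the share listed once was 90.3% over all named-gene positions. Of all named-gene positions 0.783% were listed in all 4 libraries. Genes recurred more often than bases. Astro1 and Micro2 shared 19 genes, 45.2% of the genes of Astro1 and 67.9% of those of Micro2, and other named genes shared 44.0% and 53.0%. In 14 of the 19 genes (73.7%) they listed no base in common, against 59.0% of the 1367 other named genes that both listed. They shared 6 bases, 8% of the sites of Astro1 and 15% of those of Micro2, while other named genes shared 13% and 16.4%. Among named genes, those listed in Astro1 and Micro2 alone numbered 14 of 57 (24.6%), against 15.7% of all named genes. Those in Astro1 alone numbered 17 (29.8%), against 24.3%. By position, 65 of 123 (52.8%) were listed in Astro1 alone, against 37.2% of named-gene positions, and 4 (3.25%) in Astro1 and Micro2 alone, against 3.62%.

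At the 6 bases shared by Astro1 and Micro2, the level was higher in Astro1 at 5 and in Micro2 at 1, and the median difference over the 6 was 7.25 points. At the 612 bases of other named genes that both listed, it was higher in Astro1 at 278 and in Micro2 at 188, with a median difference of 0 points. All 6 channel bases were below 100% in both libraries. At the 362 other named-gene bases below 100% in both, the median difference was 2.9 points. The 6 channel bases were those of Grin2c, Grm4 and Cacng7, both shared bases of Kcnk1, and that of Cacna1g, the one with the higher value in Micro2. At position 126752028 of chromosome 8 (plus strand), Kcnk1 was at 41.7% in Astro1 and 21.4% in Micro2, and at position 126722507 it was at 37.5% and 29.6%. The SD of the difference between these libraries at other named-gene bases below 100% in both was 20.2 points over 362 bases, and the gaps at the 6 channel bases reached 12.5 points apart from the Kcnk1 base at 20.2 points. In Clcn3, position 61365892 of chromosome 8 (minus strand) was at 42.9% in Astro2 and 60% in Micro2, and position 61382502 was at 100% in Micro1 and 92.3% in Micro2.

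**Figure D4:**
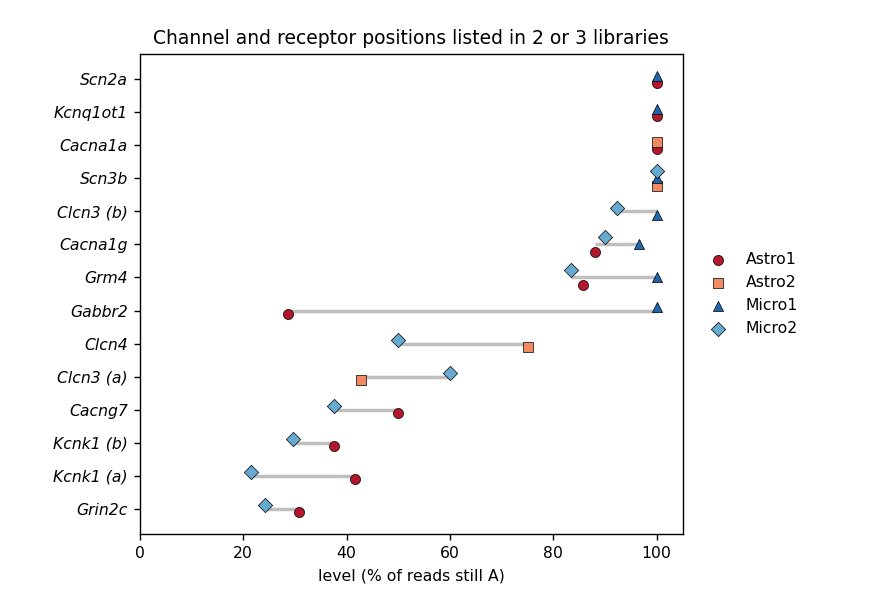
Levels in percent at the 14 channel and receptor positions listed in 2 or 3 libraries, 1 row per position, ordered by mean level; a and b tell apart positions of the same gene, and the grey line spans the values. Positions near 100% lie close together, and Gabbr2 has the longest line, from 28.6% to 100%.

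The only sequence in the tables is the base with its neighbours, shown here because it is the core of the m6A motif. It read GAC at 85 positions and AAC at 38, so that GAC made up 69.1% (exact interval 60.1 to 77.1%) of the 123, against 67.2% of the other named-gene positions. Lower case letters, which by convention mark repeats, stood in the motif at 4 positions (3.25%), against 4.99% of the others. Of the 123 positions, 95 lay in genes with a single entry in the promoter annotation used for strand, and all 95 lay on that strand. Of the other named-gene positions matched in this way, 99.8% did. In Astro1 the median level was 58.9% over 50 GAC sites and 60% over 25 AAC sites. Longer sequence around the sites was not used here.

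Close spacing of sites along a gene was about as frequent as in other named genes. Of 66 gaps between neighbouring positions of a gene, 11 (16.7%) were at most 100 bases and 33 (50%) at most 1000 bases, against 15.9% and 53.1% in other named genes. The median gap was 1062.5 bases, against 815 bases in other named genes. The ends named next are those of the listed stretch, bounded by its outermost sites, and not those of the gene. In Gria2, 2 sites of Astro1 at 38.5% and 21.4% lay 20 bases apart at the upstream end. At the downstream end, 4 sites of that library and the site of Micro2 lay within 3560 bases. Grin2c had 3 positions within 343 bases at the upstream end and 4 within 1062 bases at the downstream end, with its other positions between them. In Kcna6, bases 21 apart were at 42.9% and 77.8% in the same library. In genes with 3 or more sites in a library, the gap between the highest and lowest level had a median of 38.9 points over 9 cases, against 38.0 points over 733 cases in other named genes. Place in exon, intron or untranslated region was not determined.

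**Figure D5:**
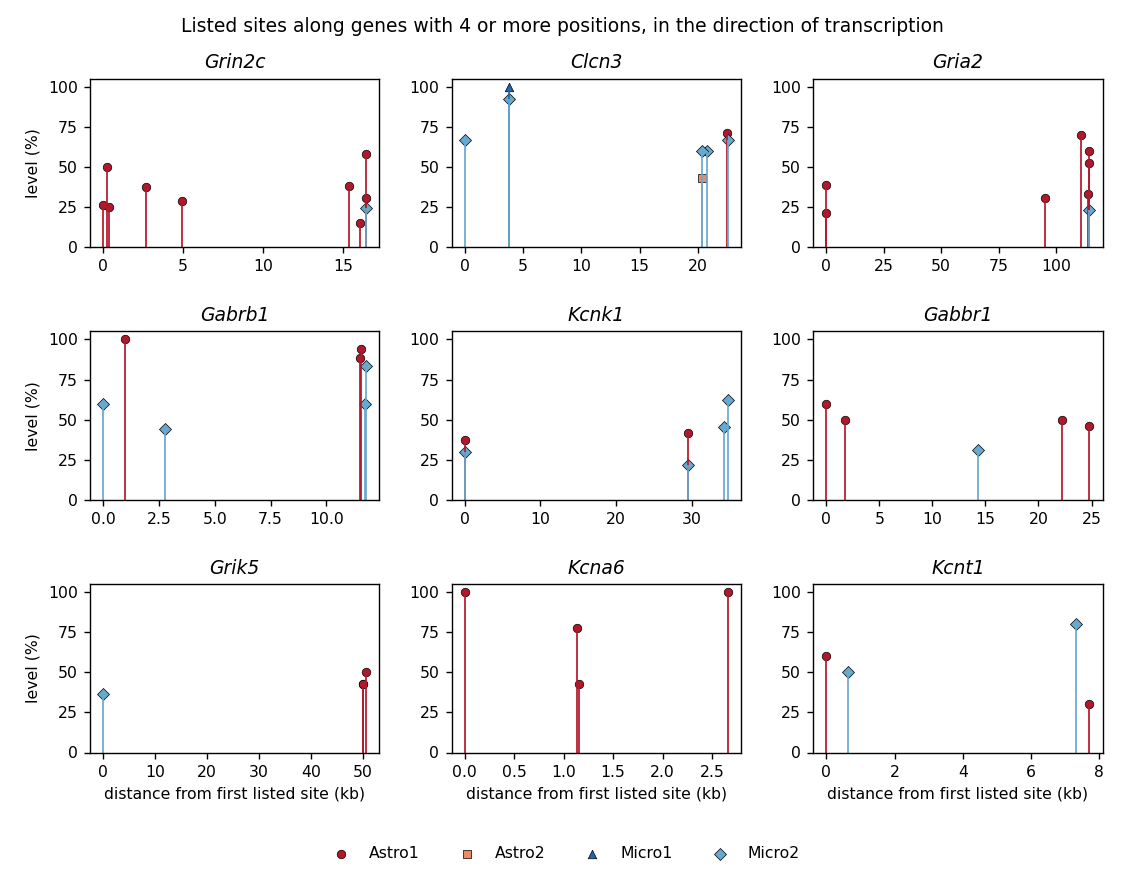
Level in percent (height) of each listed site against its distance in kb from the gene's first listed site in the direction of transcription, for the 9 genes with 4 or more positions; colour and shape give the library. In Grin2c and Gria2 most sites lie near the ends of the listed stretch, which is bounded by the outermost listed sites. In Gabrb1, Gabbr1 and Grik5 the sites of Astro1 are above those of Micro2.

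The comparison that the design implies is astrocytes against microglia. As labelled, the astrocyte libraries averaged 43 channel and receptor sites and the microglia libraries 27, a difference of 16 sites (p = 1 by a two-sided exact permutation of the libraries, n = 2 each, where 0.33 is the smallest p possible). The groups overlapped. Without Astro1 the difference was -16 sites, without Astro2 it was 48, without Micro1 it was 3 and without Micro2 it was 29. It was 61 sites in the replicate 1 libraries alone, -29 in the replicate 2 libraries alone, and -1.68 sites per 1000 named-gene sites. The mean of the library medians of level was 70% in astrocyte libraries and 80% in microglia libraries, which differ by -10 points (again p = 1 by exact permutation, n = 2 each). Without Astro1 this was 0 points, without Astro2 it was -20, without Micro1 it was 10 and without Micro2 it was -30.

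Counted by gene, each astrocyte library was set against each microglia library. Astro1 had more sites than Micro1 for 35 genes (61.4%) and fewer for 4 (7.02%), against 50.8% and 9.33% of other named genes. Astro1 had more sites than Micro2 for 28 genes (49.1%) and fewer for 12 (21.1%), against 39.0% and 27.1%. Astro2 had more sites than Micro1 for 5 genes (8.77%) and fewer for 9 (15.8%), against 27.2% and 11.7%. Astro2 had more sites than Micro2 for 6 genes (10.5%) and fewer for 25 (43.9%), against 22.2% and 38.8%. The channel and receptor genes leaned the same way as other named genes in 3 of these 4 pairs and the other way for Astro2 and Micro1. The pairs share libraries, and these shares were not tested.

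By gene, 1 of 57 (Cacna1a) was listed in both libraries labelled astrocyte and in none labelled microglia, against 4.09% of named genes, and 0 had the reverse, against 0.869%. By position, 1 of 123 (Cacna1a) had that pattern, against 0.651% of named-gene positions, and 1 (Clcn3) showed the reverse, against 0.396%. With counts of 0 and 1, no difference from those shares can be read. Leaving out 1 library drops a condition of the pattern, so the counts can only stay or rise. They were then 1 to 66 positions and 2 to 18 genes for astrocytes, the highest without Astro2. For microglia they were 2 to 31 positions and 0 to 8 genes, the highest without Micro1.

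Levels were tested with limma on the log2 odds of the level over the 354 sites of all tables that were listed in all 4 libraries and not tied within the types. None of the 354 was a channel or receptor site, and 0 passed an adjusted p of 0.05 (limma, 0% of those tested, with 16 at an unadjusted p under 0.05). Over sites with at least 1 astrocyte and 1 microglia listing, 2 channel sites could be tested among 694, of which limma called 0 (0%), with 16 at an unadjusted p under 0.05. The Cacna1g site differed by -1.13 ± 1.58 (SE) log2 odds in astrocytes minus microglia (limma, adjusted p = 0.899), with 1 astrocyte value below both microglia values. The Grm4 site differed by -1.89 ± 2.46 (SE) log2 odds (limma, adjusted p = 0.899), with the astrocyte value between the microglia values. Both fits have 1 astrocyte library, Astro1, so their spread comes from Micro1, Micro2 and the other sites in the fit, and Astro1 is assumed to vary like them. Micro2 is the library labelled microglia that lists astrocyte markers.

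Genes around this set behaved in part like it. Of 40 channel and receptor genes outside the naming rule, 13 had sites in Astro1, 7 in Astro2, 4 in Micro1 and 13 in Micro2. Of all coding genes, 12.8% had sites in Astro1, 6.87% in Astro2, 3.07% in Micro1 and 10.8% in Micro2. The 40 genes lay above these shares in every library, while the genes fitting the rule lay below in Astro2 (4.29%). Lrrc8a, a subunit of the volume regulated anion channel, had 1 site in Astro1 and 6 in Micro2, and Ano1, a calcium activated chloride channel, had 2 in each of these libraries. P2rx7, a receptor for ATP that is prominent in microglia, had 1 site in Astro1 and 1 in Astro2. Of 30 genes for proteins that anchor or escort receptors and channels, 11 had sites in Astro1, 1 in Astro2, 3 in Micro1 and 7 in Micro2. They lay above the shares of all coding genes in Astro1, Micro1 and Micro2 and below in Astro2. Both lists were chosen with earlier results of these data known.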

How the data were processed

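Each library has 1 table of called sites (chromosome, start, end, gene name, level, strand, 3-mer). The levels are fractions deposited by the authors, without coverage, read counts or p-values beside them, and are given here as percent. Per the series' design text, sites were called with GLORI-tools; the submitters' processing notes name STAR and mm39. Calling thresholds are not stated there. The lowest listed level is 10%, and a site that is absent may be unmethylated, below a threshold or unread. Depth is unknown, so no level has a counting interval.

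Sites were matched between libraries by chromosome, strand and 1-based position. Gene families were counted against coding symbols in a RefSeq table of GRCm38, used for names only. Strand was read from a promoter annotation of GRCm38. Shares carry exact (Clopper-Pearson) 95% intervals. Library counts and medians were compared by exact permutation. Levels were tested with limma 3.58.1 in R 4.3.3 on log2 odds, with levels held between 0.01 and 0.99 and Benjamini-Hochberg adjustment over all sites; sites tied within types received no test. The model on read counts foreseen in the design could not be run, since the tables hold no counts. The limma step was also run on simulated data, with the outcome not given here. How large a difference 2 against 2 libraries can detect is therefore not stated. Genes named with full values are the 25 with the most positions and every gene with a position in 2 or more libraries; the others are named at most once, and a few are not reported here. Members and gene lists were chosen with earlier results of these data known. Alternatives are given in the closing section. The place of sites within transcripts was not determined, for want of an annotation of mm39.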

Additional observations from a re-analysis of the deposited data

How the results depend on the processing

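Read depth, which is unknown, and the replicate 2 libraries, whose marker genes go against their labels, limit every comparison between the types. Leaving out 1 library at a time moved the difference in channel sites (astrocyte minus microglia) between -16 and 48, the lower value being that without Astro1, and the difference in median level between -30 and 10 points, with 0 without Astro1. Libraries chosen after the data were seen gave -29 sites and 20 points in the replicate 2 libraries alone, against 61 sites and -40 points in the replicate 1 libraries alone. Per 1000 named-gene sites the difference was -1.68. The cause of these reversals was not tested. Counting only sites below 100%, or only those at 20% or more, kept the direction of both differences. The difference in sites also kept its direction with Kcnj10 added, with non-coding names or Trpc4ap left out and with genes in place of sites, and the difference in level with the mean in place of the median and with means per gene.

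With fewer libraries the pattern by type has fewer conditions, so its counts can only stay or rise. With 1 library left out, positions listed in astrocytes alone numbered 1 to 66 and in microglia alone 2 to 31. Genes numbered 2 to 18 and 0 to 8. In the replicate 1 libraries alone there were 70 and 9 positions and 33 and 4 genes, and in the replicate 2 libraries alone 8 and 37 positions and 6 and 24 genes. Matching within 2 bases changed neither count of positions, and neither did a minimum level of 20%.

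In the test of levels, limma called 0 sites under each of 9 alternatives, among them the replicate block (0 of 354, with 10 at an unadjusted p under 0.05). Deviations of libraries with the same number from their type means correlated at -0.07 over the 354 sites. By marker genes Astro1 goes with Micro2 and Astro2 with Micro1, so a cell type difference would enter these deviations with opposite signs. The correlation therefore cannot tell whether replicate numbers pair the libraries, and the labels name no shared animal or day. The alternative annotation of transcripts was not run.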
